A study of Mus musculus with 4 samples.

Results

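The 30 genes described here encode subunits of the nuclear RNA polymerases I, II and III, or, for Polr2m, a protein that associates with RNA polymerase II. They were taken by gene name from the array files, with every probe that carries such a name, which gave 64 probes for 30 of 37074 named genes and 56605 probes in all. Symbols are spelled as in the files; Twistnb, Znrd1 and Cd3eap are older names of the RNA polymerase I subunits now called Polr1f, Polr1h and Polr1g. Of the 30 genes, 6 belong to RNA polymerase I only, 2 are shared by I and III, 5 are shared by all 3 enzymes, 8 belong to RNA polymerase II only (Polr2m counted with them) and 9 to RNA polymerase III only.

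Mouse CD4+ T cells were measured in 4 groups of 1 array each, and no group has a replicate. WT naive T cells and Nr4a-TKO naive T cells were sorted from spleen and lymph nodes as CD4+, CD25low, CD44low, CD62L-high and Foxp3- cells. WT and Nr4a-TKO induced regulatory T (iTreg) cells were such naive cells after 3 h on plate-bound anti-CD3 (2 µg/ml) with anti-CD28 (0.5 µg/ml), IL-2 (10 ng/ml), TGF-β1 (at either 0.2 ng/ml or 0.5 ng/ml, not stated which) and antibodies that block IFN-γ and IL-4. Nr4a-TKO refers to loss of the nuclear receptors Nr4a1, Nr4a2 and Nr4a3 through floxed Nr4a1 and Nr4a2 alleles and an Nr4a3-/- allele, on C57BL/6J; the Cre driver was not stated in the sources used here. All naive cells came from irradiated Rag2-/- recipients of bone marrow, 6 weeks after transfer, with age-matched mice of 6 to 8 weeks as the stated age of the lines. The Nr4a-TKO cells (Ly5.2+) came from recipients of mixed WT (Ly5.1+) and Nr4a-TKO marrow and the WT cells from recipients of WT marrow only, so genotype and kind of chimera cannot be told apart. How many animals were pooled for an array was not stated.

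RNA polymerase I makes the precursor of the large ribosomal RNAs in the nucleolus, RNA polymerase II makes messenger RNAs, and RNA polymerase III makes transfer RNAs and the smallest ribosomal RNA. Each enzyme has its own pair of large catalytic subunits, its own peripheral subunits and a set of small subunits held in common with the others. A naive T cell is quiescent and small, and antigen receptor stimulation is known to start cell growth with increased ribosome and transfer RNA production. RNA polymerase III exists in 2 forms that differ in the subunit Polr3g or Polr3gl: these paralogs occupy the same place in the enzyme, and Polr3g is known from stem and tumour cells and Polr3gl from differentiated cells.

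These paralogs moved in opposite directions on the arrays, and probes of Polr2c disagreed, as did those of some other genes given below. For the paralogs and Polr2c, 60-base probes are therefore shown first, 5′ to 3′, as the array annotation gives them on mm9. The Polr3g probe, the brightest of that gene, lies at chr13:81833647-81833706 on the minus strand, the Polr3gl probe, the dimmer of its 2 probes, at chr3:96382438-96382497 on the minus strand, a dimmer Polr2c probe to its RefSeq mRNA at chr8:97387414-97387473 on the plus strand, and the brightest probe named Polr2c, designed to a full-length cDNA record, at chr8:97394487-97394546 on the plus strand. The brightest Polr3gl probe and the brighter RefSeq probe of Polr2c are not shown. All letters are lower case, as no base is marked.
Polr3g: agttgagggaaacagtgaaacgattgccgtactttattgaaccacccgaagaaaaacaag
Polr3gl: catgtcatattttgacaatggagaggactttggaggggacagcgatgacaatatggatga
Polr2c, RefSeq mRNA: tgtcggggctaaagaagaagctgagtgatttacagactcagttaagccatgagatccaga
Polr2c, cDNA record: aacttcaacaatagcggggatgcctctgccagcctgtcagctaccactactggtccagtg
No Polr3g probe on the array shares a run of more than 7 bases with a Polr3gl probe. The cDNA probe of Polr2c starts 6740 bases beyond the end of the last RefSeq probe of that gene, a distance close to the 6793 bases that the whole gene spans in the GRCm38.p6 RefSeq table.

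The targeted genes were read first. Nr4a1 had processed intensities of 126.4 in WT naive T, 299.6 in naive T labelled Nr4a-TKO, 3113 in WT iTreg and 4192 in iTreg labelled Nr4a-TKO. At 3 h both Nr4a2 probes were also higher on the array labelled Nr4a-TKO (1160 and 1394) than on the WT array (467.2 and 552.5), and 2 of 3 Nr4a3 probes were lower (191.6 and 179.1 against 789.2 and 551.0). The levels of Nr4a1 and Nr4a2 thus go against the label, and whether these probes lie in a deleted part is not known here, so the arrays are called those labelled Nr4a-TKO, or TKO-labelled. All 7 markers of naive CD4 T cells were well above background on every array, their summed intensity being 15571 to 16147 in naive T and 7576 to 9882 at 3 h, while the summed intensity of 7 activation genes was 4654 to 5513 in naive T and 36143 to 40053 at 3 h. Markers of other cells were also read. The sums were 69.5 to 132 for 2 CD8 T cell genes, 333.2 to 577 for 4 B cell genes, 107 to 168 for 3 erythroid genes (Hbb-b1 was not well above background on any array) and 37049 to 40061 for 4 myeloid genes, of which Itgam alone gave 34732 to 37385 and Lyz2 gave 7.96 to 14.8. The 3 Treg genes summed to 751.2 to 1189, with Foxp3 at 141.7 and 182.5 on the WT arrays and at 54.3 and 62.5 on those labelled Nr4a-TKO. The part of these other transcripts in the values below was not tested.

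Values are given on 2 scales. The processed intensity is the scanner software's background-subtracted signal of a probe on 1 array, and is compared only between arrays for the same probe. A log2 difference is taken between 2 arrays after each array's log2 intensities were set to a 75th percentile of 0, and a gene is represented by its brightest probe unless another is named. All 30 brightest probes were well above background on all 4 arrays, so no filter removed a gene and no difference is a bound. In place of replicates, probes spotted 5 or more times on an array gave the spread of spots: the SD of a log2 difference was 0.31 below an intensity of 64, 0.12 from 64 to 512 and 0.06 above 512. This spread covers repeat spots only, not cells or cultures. A change of more than 2-fold is called here, and only such changes are described as a rise or a fall; no p-value can be given. In bulk RNA, fewer cells of a type and less RNA per cell cannot be told apart.

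From naive T to iTreg at 3 h, transcripts of 9 of the 13 RNA polymerase I and shared subunits rose in each genotype, 1 of the 8 RNA polymerase II genes did, and within RNA polymerase III Polr3g rose while Polr3gl fell. The other 4 of those 13 (Znrd1, Polr1d, Polr2e and Polr2k) had positive log2 differences short of 2-fold. In WT cells 14 of 30 genes rose more than 2-fold, against 9.91% of all 26610 genes measured, and 1 fell, against 11.1%. On the arrays labelled Nr4a-TKO 13 of 30 rose, against 9.29% of 27182 genes, and 1 fell, against 9.89%. The 13 genes that rose on the arrays labelled Nr4a-TKO were all among the 14 in WT, and the gene that fell was Polr3gl in both. The median log2 difference of the 30 genes was 0.88 in WT and 0.93 on the arrays labelled Nr4a-TKO, where the median over all genes was -0.10 and -0.05. For all but Polr2g the log2 difference had the same sign in both genotypes. With a normexp background correction and an offset of 50, which compresses dim probes, 9 genes rose in WT and 8 on the TKO-labelled arrays. All of them were among those above, and with that correction 4.92% and 4.41% of all genes rose. Polr1a, Polr1e, Polr2d and Polr2f no longer passed 2-fold in either genotype. Polr3a no longer did in WT, nor Cd3eap on the TKO-labelled arrays.

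**Figure D1:**
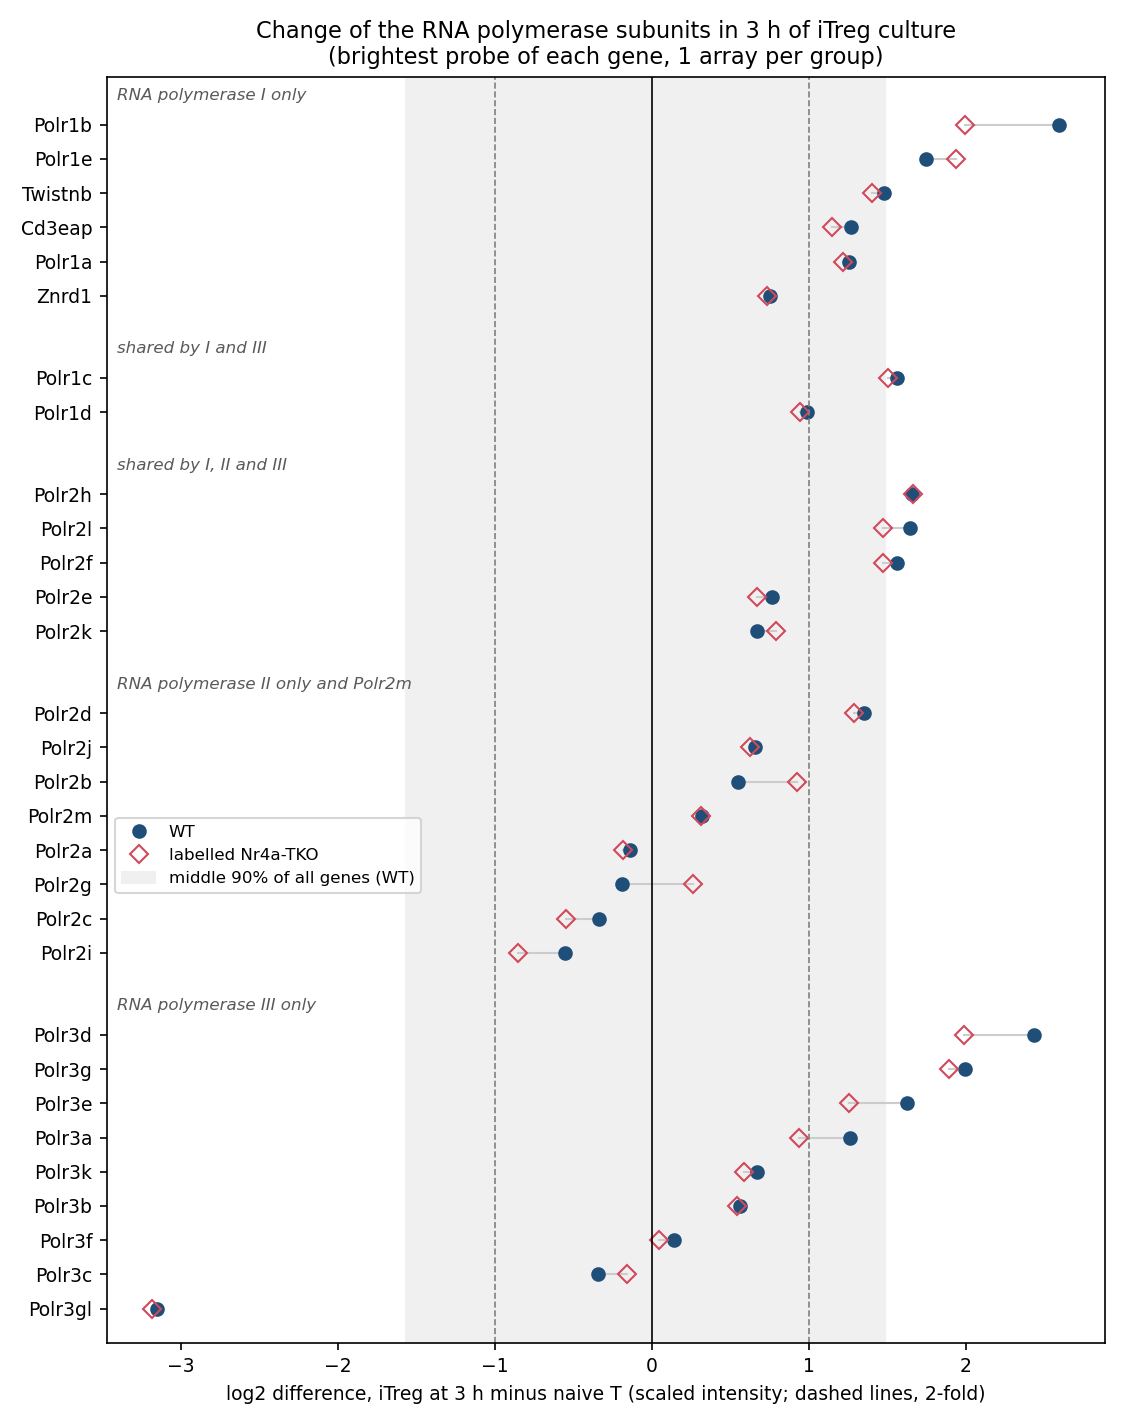
Log2 difference in scaled intensity from naive T to iTreg at 3 h (x axis) for the brightest probe of each of the 30 genes (rows, grouped by enzyme), in WT (filled circles) and on the arrays labelled Nr4a-TKO (open diamonds), with 1 array per group and no error bars; grey marks the middle 90% of all genes in WT, -1.56 to 1.48. The RNA polymerase I and shared subunits all lie right of 0, Polr1b is farthest right in WT at 2.60, and Polr3gl stands alone at the left at -3.15 and -3.18.

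The large catalytic subunits of RNA polymerase I were both among the genes that rose. Polr1b, the second largest subunit, had intensities of 36.0 in WT naive T and 43.1 in TKO-labelled naive T, and 247.3 in WT iTreg and 191.3 in TKO-labelled iTreg. Both iTreg arrays were above both naive arrays, and the log2 differences of 2.60 and 1.99 correspond to 6.05-fold and 3.98-fold. Its dimmer probe gave 1.44 and 1.77. Polr1a, the largest subunit, went from 62.4 in WT and 65.3 in TKO-labelled naive cells to 169.2 and 169.1 at 3 h, log2 differences of 1.25 and 1.22. Its 2 other probes, to cDNA records, gave 1.08 and 1.13 in WT and 0.81 and 0.91 on the arrays labelled Nr4a-TKO, so that there they did not pass 2-fold.

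The peripheral subunits of RNA polymerase I moved the same way. Polr1e and Cd3eap form a heterodimer that resembles the general factor TFIIF. Polr1e had intensities of 32.6 and 25.4 in WT and TKO-labelled naive cells and of 124.5 and 108.2 at 3 h, log2 differences of 1.75 and 1.94, and its other probe gave 1.88 and 1.89. Cd3eap had intensities of 131.9 and 114.4 in naive cells and of 361.2 and 282.0 at 3 h, log2 differences of 1.27 and 1.15, and its dimmer probe changed more, by 2.27 and 2.18. Twistnb, the stalk subunit that contacts the initiation factor Rrn3, gave 1.48 and 1.40 on its only probe. Znrd1, the small subunit with RNA cleavage activity, was the only gene of this group short of 2-fold, with 0.75 and 0.73. In all, 5 of 6 genes rose in each genotype and the median log2 difference was 1.37 in WT and 1.31 on the arrays labelled Nr4a-TKO.

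Polr1c and Polr1d form the assembly platform that RNA polymerases I and III have in common. Polr1c had intensities of 769.2 in WT and 812.8 in TKO-labelled naive cells, and of 2581 and 2563 at 3 h. The 2 genotypes lay close together at each stage, and the rise was 2.95-fold in WT and 2.83-fold on the arrays labelled Nr4a-TKO. Polr1d lay just short of the threshold with 0.99 and 0.94 on its brightest probe, and its 2 dimmer probes passed it, with 1.24 and 1.44 in WT and 1.04 and 1.46 on the arrays labelled Nr4a-TKO.

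Of the 5 subunits found in all 3 enzymes, 3 rose in each genotype and all 5 had positive log2 differences. Polr2h had intensities of 61.6 in WT and 52.2 in TKO-labelled naive cells and of 221.0 and 184.2 at 3 h, log2 differences of 1.66 and 1.66, and its other probes ranged from 1.37 to 2.15 over both genotypes. Polr2f, measured by 1 dim probe, went from 15.7 and 14.2 to 52.5 and 43.9, log2 differences of 1.56 and 1.47. Polr2l went from 177.3 and 197.5 to 629.6 and 610.0, log2 differences of 1.64 and 1.47, but its second RefSeq probe gave 0.07 and 0.05, so the call for Polr2l rests on 1 of 2 probes. Polr2e gave 0.76 and 0.67, and Polr2k gave 0.67 and 0.79.

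Among the 8 genes of RNA polymerase II, 1 rose in each genotype and the median log2 difference was 0.09 in WT and 0.29 on the arrays labelled Nr4a-TKO. These medians use the brightest probes of Polr2c and Polr2i, which were negative where the other probes of both genes were positive, as given below. On their brightest RefSeq probes Polr2c gave 0.86 and 1.13 and Polr2i gave 0.26 and 0.39. Medians over RefSeq probes would thus be higher, but they were not computed for this group. Polr2a, the largest subunit, whose tail coordinates RNA processing, had intensities of 1464 in WT and 1397 in TKO-labelled naive cells and of 1512 and 1369 at 3 h. The naive and iTreg values overlap, and after scaling the log2 differences were -0.14 and -0.18; the other Polr2a probe gave 0.07 and -0.14. Polr2b, the second largest subunit, had intensities of 102.6 and 88.2 in naive cells and of 170.8 and 186.6 at 3 h, log2 differences of 0.55 and 0.93. Neither passed 2-fold.

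Polr2d and Polr2g form the stalk of RNA polymerase II. Polr2d had intensities of 55.1 and 66.3 in WT and TKO-labelled naive cells and of 160.0 and 180.7 at 3 h, and its log2 differences of 1.35 and 1.29 made it the only gene of the group to rise on its brightest probe. Polr2g had 482.0 in WT and 373.4 in TKO-labelled naive cells and 480.8 and 498.2 at 3 h. The lowest of the 4 values was TKO-labelled naive T, and the log2 differences were -0.19 in WT and 0.26 on the arrays labelled Nr4a-TKO. Polr2j gave 0.66 and 0.62, and Polr2m, which restrains RNA polymerase II, gave 0.32 and 0.31.

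For Polr2c and Polr2i the sign depended on the probe. Polr2c is the RNA polymerase II counterpart of Polr1c in the assembly platform. Its brightest probe, the cDNA probe shown above, had intensities of 1356 in WT and 1563 in TKO-labelled naive cells and of 1220 and 1190 at 3 h, log2 differences of -0.34 and -0.55. The brighter of its RefSeq probes had 291.1 and 235.0 in naive cells and 599.7 and 572.5 at 3 h, log2 differences of 0.86 and 1.13, and the RefSeq probe shown above gave 0.62 and 1.04. Polr2i, a small subunit with a role in proofreading, gave -0.55 and -0.85 on its brightest probe, to an Ensembl transcript, and between 0.25 and 0.90 on its 3 other probes. With the brightest RefSeq probe of each gene, 14 of 30 genes rose in WT and 14 on the arrays labelled Nr4a-TKO, the added gene being Polr2c; with that choice 1807 of all 15103 genes rose in WT and 1788 of 15435 on the TKO-labelled arrays. This choice was made after seeing the data.

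**Figure D2:**
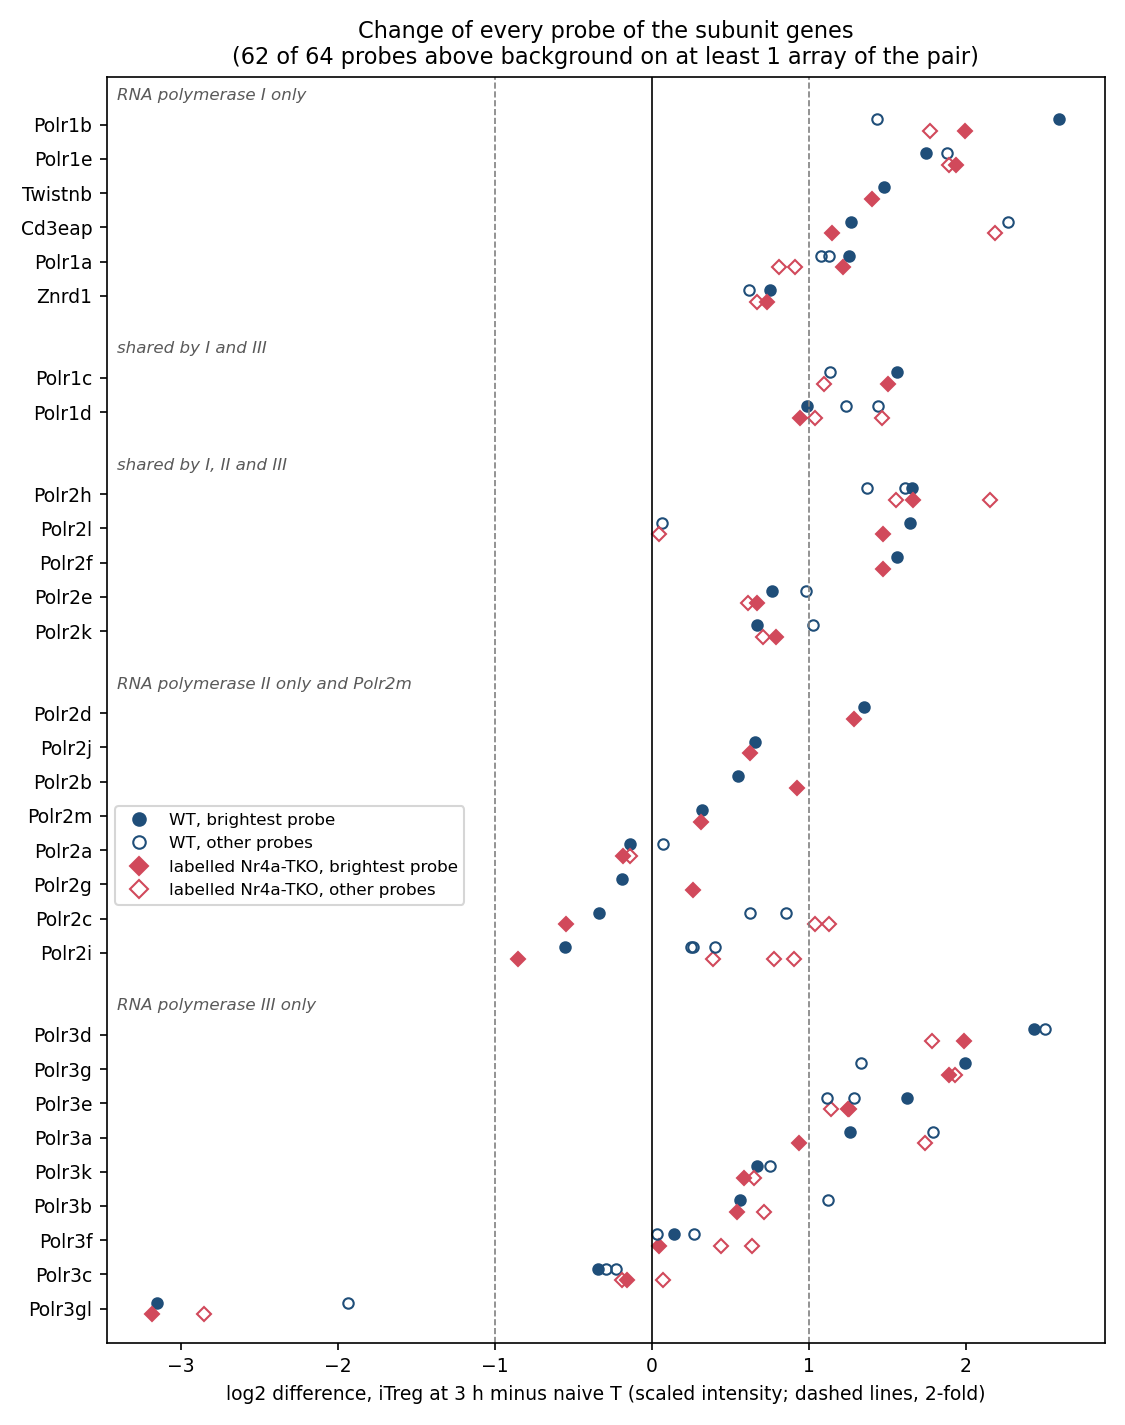
Log2 difference in scaled intensity from naive T to iTreg at 3 h (x axis) for 62 of the 64 probes, in WT (circles) and on the arrays labelled Nr4a-TKO (diamonds); filled symbols are the brightest probe of a gene and open symbols its other probes, with 1 array per group. The probes of Polr2c and Polr2i fall on both sides of 0, with filled symbols at -0.34 and -0.55 for Polr2c.

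Over all probes, 62 of 64 were well above background on at least 1 array of each stage comparison; the 2 others were 1 each of Polr2b and Polr3a. Of the 23 genes with several measured probes, 20 had probes of a single sign in WT, the exceptions being Polr2a, Polr2c and Polr2i, and 20 had so on the arrays labelled Nr4a-TKO, the exceptions being Polr2c, Polr2i and Polr3c. Of the 11 genes that rose in WT and had several probes, 10 passed 2-fold on every probe, Polr2l being the exception. On the arrays labelled Nr4a-TKO 8 of 10 did, the exceptions being Polr1a and Polr2l.

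RNA polymerase III had the widest spread. Polr3gl fell most of the 30 genes. Its brightest probe had intensities of 400.0 in WT and 312.0 in TKO-labelled naive cells and of 51.2 and 38.3 at 3 h. Both iTreg arrays lay far below both naive arrays, with log2 differences of -3.15 and -3.18, which is 8.88-fold and 9.07-fold lower. Its second probe, shown above, had 141.8 and 166.0 in naive cells and 42.1 and 25.6 at 3 h, log2 differences of -1.94 and -2.85. Polr3g moved the other way. The Polr3g probe shown above had 107.9 in WT and 117.6 in TKO-labelled naive cells and 489.6 and 486.1 at 3 h, log2 differences of 2.00 and 1.89, which is 3.99-fold and 3.71-fold higher. The second Polr3g probe had 37.2 and 29.0 in naive cells and 106.5 and 123.1 at 3 h, log2 differences of 1.33 and 1.93. All 4 probes of the paralogs thus passed 2-fold in each genotype, in opposite directions for the 2 genes.

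**Figure D3:**
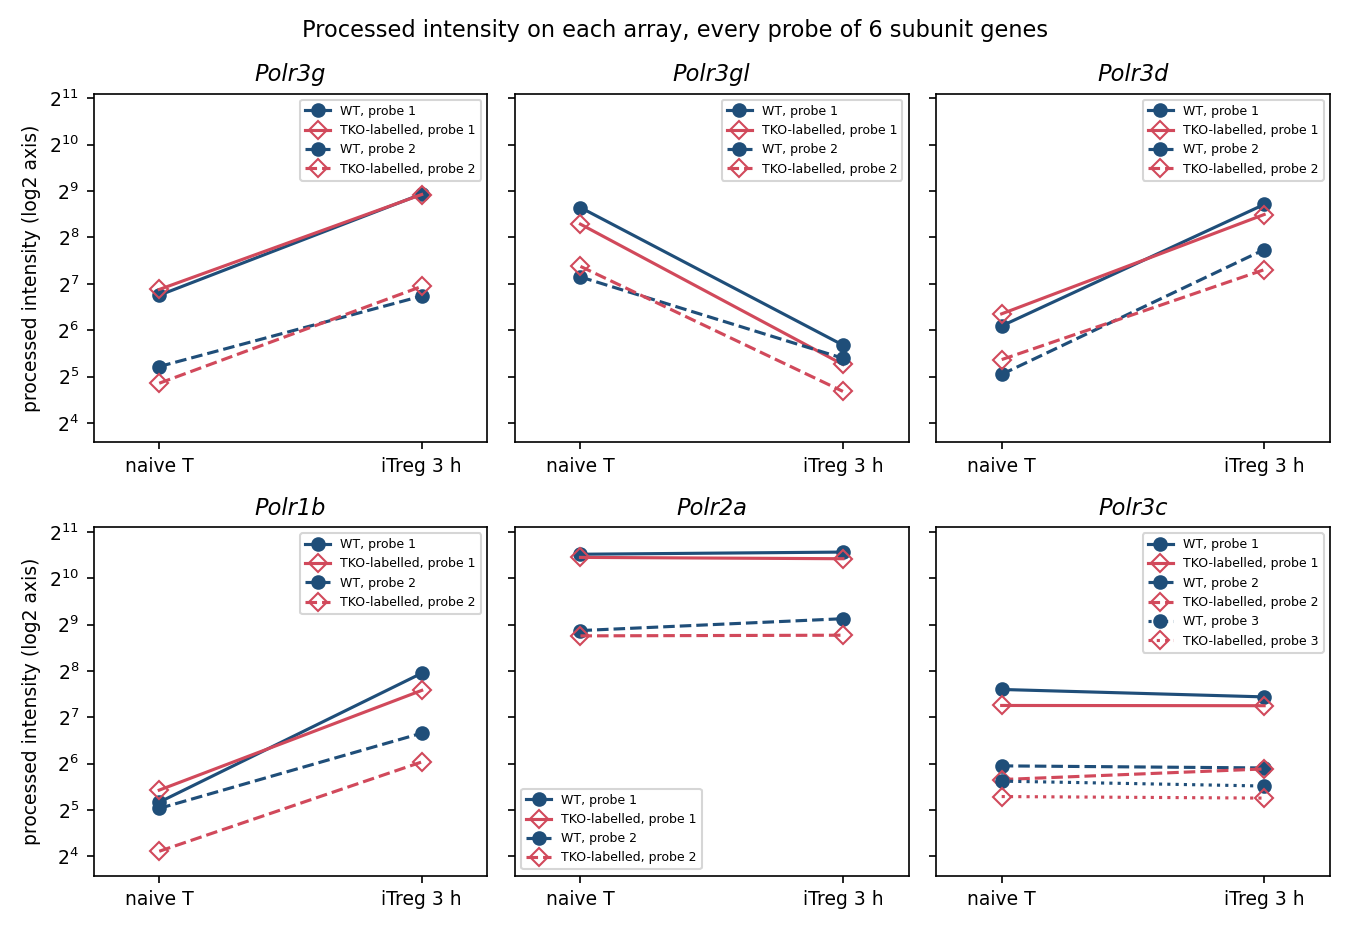
Processed intensity (y axis, log2 scale) in naive T and iTreg at 3 h (x axis) for every probe of Polr3g, Polr3gl, Polr3d, Polr1b, Polr2a and Polr3c, in WT (filled circles) and on the arrays labelled Nr4a-TKO (open diamonds); each point is 1 array, and line styles mark the probes of a gene. Lines slope up for Polr3g, Polr3d and Polr1b and down for Polr3gl in both genotypes, and those of Polr2a and Polr3c are nearly level.

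Polr3d and Polr3e form the TFIIF-like heterodimer of RNA polymerase III, the counterpart of Polr1e and Cd3eap. Polr3d had intensities of 68.2 in WT and 81.7 in TKO-labelled naive cells and of 418.9 and 360.5 at 3 h, log2 differences of 2.43 and 1.99. Its other probe gave 2.50 and 1.78, so both probes changed by less on the arrays labelled Nr4a-TKO. Polr3e had 156.1 and 183.2 in naive cells and 547.1 and 487.3 at 3 h, log2 differences of 1.62 and 1.26, and its other probes ranged from 1.11 to 1.29. In RNA polymerases I and III alike, both members of this heterodimer rose in both genotypes on every probe.

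Of the large catalytic subunits of RNA polymerase III, Polr3a passed 2-fold in WT and Polr3b in neither genotype on the brightest probe. Polr3a had intensities of 101.0 in WT and 114.6 in TKO-labelled naive cells and of 275.1 and 244.3 at 3 h. Its log2 differences of 1.26 and 0.94 lay on either side of the threshold, and it was the only gene called in 1 genotype. A dimmer probe gave 1.79 and 1.74, but it was not well above background in naive cells, so these values are uncertain. Polr3b had 82.5 and 76.4 in naive cells and 138.3 and 124.1 at 3 h, log2 differences of 0.56 and 0.54, with 1.12 and 0.72 on its other probe. Polr3k, the cleavage subunit that corresponds to Znrd1 and Polr2i, gave 0.67 and 0.59.

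Polr3c and Polr3f, which join Polr3g or Polr3gl in the heterotrimer that opens the promoter, did not pass 2-fold. Polr3c had intensities of 194.0 in WT and 152.7 in TKO-labelled naive cells and of 173.6 and 152.2 at 3 h, log2 differences of -0.35 and -0.16. Its 3 probes lay between -0.35 and 0.07 over both genotypes. Polr3f gave 0.14 and 0.05 on its brightest probe and between 0.03 and 0.64 on the others. Of the genes of this heterotrimer, only Polr3g and Polr3gl changed by more than 2-fold, in opposite directions. The total of the transcripts for the place these paralogs share was not measured. Over the 9 genes of RNA polymerase III, 4 rose in WT and 3 on the arrays labelled Nr4a-TKO, 1 fell in each, and the median log2 difference was 0.67 and 0.59.

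Between genotypes no gene of the 30 differed by more than 2-fold at either stage. In naive T this is 0 higher and 0 lower, against 2.73% and 2.57% of 26454 genes, and in iTreg at 3 h 0 higher and 0 lower, against 2.74% and 2.63% of 26928 genes. No probe of a member passed 2-fold either. All 30 genes were well above background on all 4 arrays. Among genes for which this held, the shares were 1.4% higher and 1.24% lower in naive T and 1.54% and 1.38% at 3 h. With shares this small, 0 of 30 does not set these genes apart from others. The log2 differences, arrays labelled Nr4a-TKO minus WT, ran from -0.33 to 0.31 in naive T with a median of -0.01 and from -0.35 to 0.25 at 3 h with a median of -0.09, where the medians over all genes were -0.01 and 0.02. At 3 h 20 of 30 genes were below 0, and 8 of 9 genes of RNA polymerase III, against 12737 of all 26928 genes. The 30 genes share the same 2 arrays.

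The genes with the largest genotype differences in naive T were Polr2g, at -0.33 on its only probe, and Polr1e, at -0.32 and -0.17 on its 2 probes. At 3 h they were Polr3gl, at -0.35 and -0.64, and Polr1b, at -0.30 and -0.55. In naive T the probes of the latter genes did not share a sign, being -0.32 and 0.27 for Polr3gl and 0.30 and -0.88 for Polr1b. Polr3d was higher on the array labelled Nr4a-TKO in naive T on both probes (0.30 and 0.36) and lower at 3 h on both (-0.14 and -0.36).

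**Figure D4:**
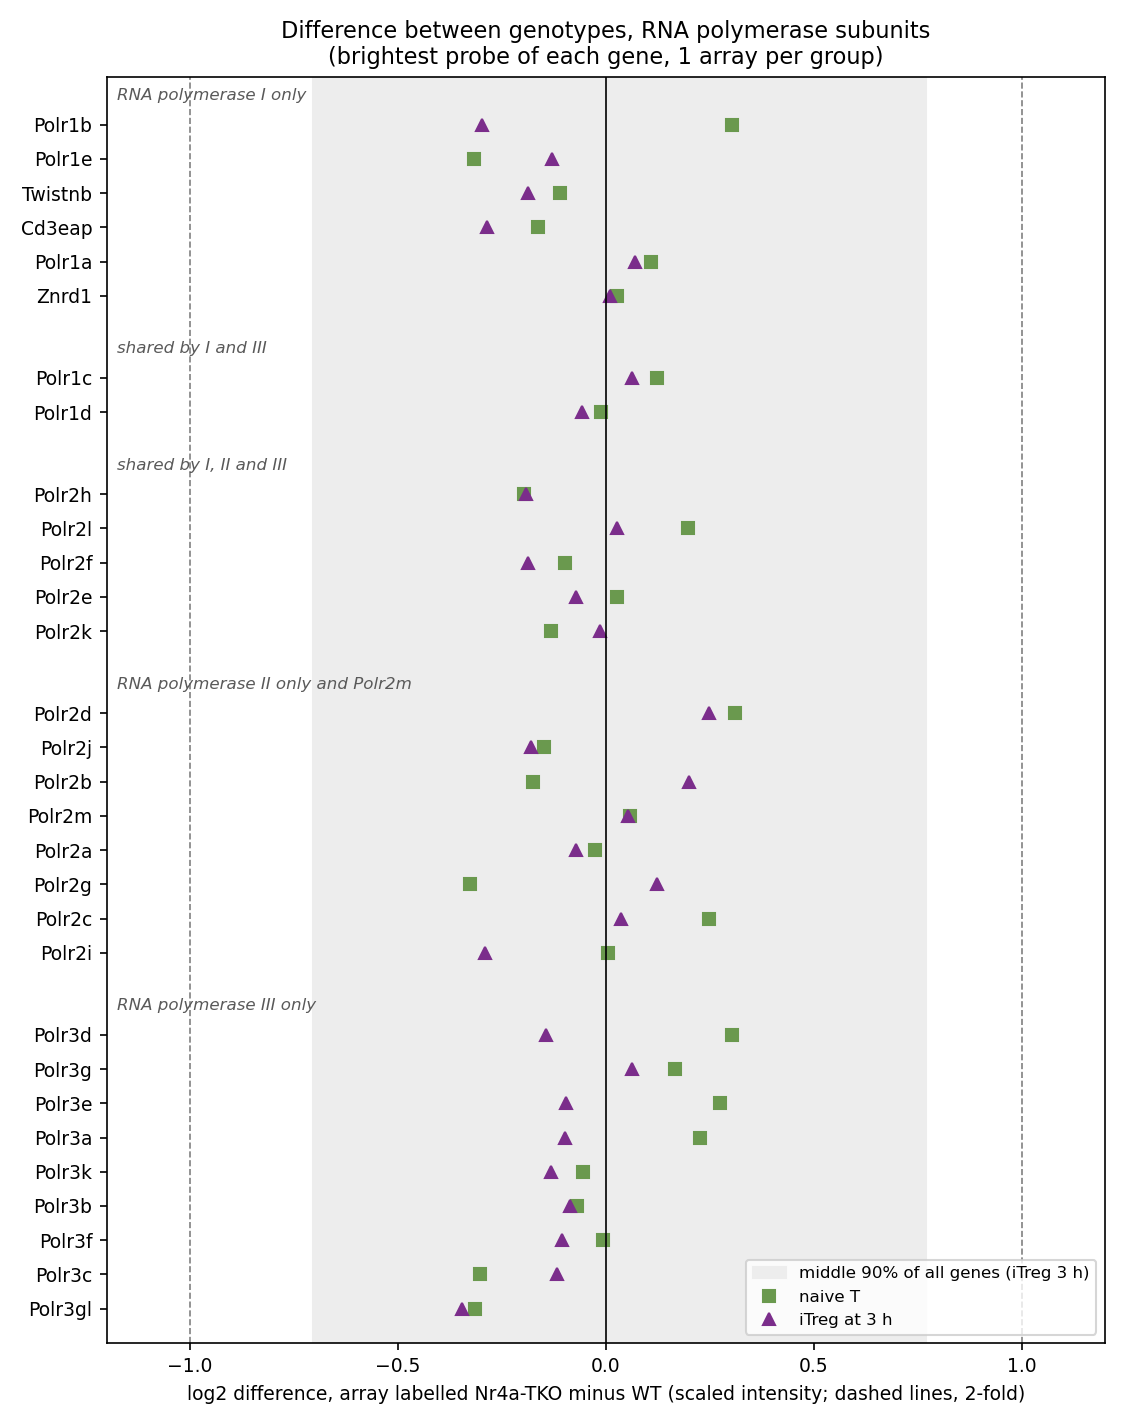
Log2 difference in scaled intensity, array labelled Nr4a-TKO minus WT (x axis), for the brightest probe of each of the 30 genes (rows) in naive T (squares) and iTreg at 3 h (triangles), with 1 array per group; grey marks the middle 90% of all genes at 3 h, -0.70 to 0.77. All 60 points lie inside the dashed 2-fold lines, between -0.35 and 0.31.

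Subtracting each gene's change in WT from that on the TKO-labelled arrays gave a difference that had a median of -0.06 over the 30 genes and was below 0 for 24 of them, where the median over all genes was 0.03. It ran from -0.60 for Polr1b to 0.45 for Polr2g, and none passed 2-fold. Of the 14 genes that rose in WT, 12 had a smaller value on the arrays labelled Nr4a-TKO. Because these 14 were chosen by their WT value, smaller values on the other arrays are favoured by the choice itself. No conclusion is drawn from that count. These differences between the changes were not tested, and the share of all genes below 0 was not counted for them.

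Other genes of the transcription machinery were read from fixed lists. The counts of these lists stand against the shares of all genes given above, 9.91% higher and 11.1% lower in WT and 9.29% and 9.89% on the TKO-labelled arrays. Of 7 RNA polymerase I initiation genes 3 rose in each genotype, of which 2 were the same. Rrn3, the factor that makes RNA polymerase I competent to initiate, gave 1.48 and 1.32, and Taf1a, of the promoter selectivity factor, gave 1.10 and 1.30. Taf1d passed in WT only, with 1.03 and 0.98, and Taf1c on the TKO-labelled arrays only, with 0.21 and 1.38. Of 18 general factors of RNA polymerase II 6 rose in WT and 8 on the arrays labelled Nr4a-TKO, and none fell. Among those past 2-fold in both genotypes, the 4 with the largest mean change were Gtf2e1, Gtf2f2, Ercc2 and Gtf2h4. Gtf2e1, of the factor TFIIE, gave 1.89 and 1.72, and Gtf2f2, of TFIIF, gave 1.99 and 1.45. Ercc2, of TFIIH, gave 1.36 and 1.31, and Gtf2h4, also of TFIIH, gave 1.17 and 1.36. These 4 genes were dim in WT naive T, with intensities of 21.1, 24.1, 16.6 and 38.5, and so was Taf1a, with 29.2. At such intensities the spot SD of a difference was 0.31.

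Of 16 pausing and elongation genes 2 rose and 1 fell in each genotype. Nelfe, of the negative elongation factor, gave 1.57 and 1.65, Larp7, which binds the RNA that holds back the elongation kinase, gave 1.42 and 1.41, and Supt4a, of the elongation factor DSIF, gave -1.12 and -1.14. Of 16 RNA polymerase III factor genes 3 rose in each genotype. Snapc4, of the complex for small nuclear RNA genes, gave 1.52 and 1.40, and Bdp1, of TFIIIB, gave 1.26 and 1.13. Gtf3c4, of TFIIIC, gave 1.73 and 1.14 but was dim in naive T, at 12.98 in WT and 13.95 on the TKO-labelled array. Maf1, the repressor of RNA polymerase III, was the 1 gene that fell in WT, with -1.51, and gave -0.89 on the arrays labelled Nr4a-TKO; it is named after its values were seen. Of 6 genes for assembly and import of the polymerases, 1 rose in WT and 2 on the TKO-labelled arrays. Gpn1, a GTPase for import of RNA polymerase II, passed in both with 1.80 and 1.34. Of 4 genes of mitochondrial transcription 1 rose in each genotype, Tfb2m, with 1.22 and 1.12. Over the 67 genes of these lists 16 rose and 2 fell in WT and 19 rose and 1 fell on the arrays labelled Nr4a-TKO, with median log2 differences of 0.50 and 0.65.

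Promoter sequences were read for what the genes share beyond function. The RefSeq promoter table (GRCm38.p6; 250 bases before to 50 after the start) held 25 of the 30 genes; Polr2d, Polr2g, Polr2k, Polr3a and Polr3d were not in it. Searched on both strands, CACGTG, the E-box bound by Myc and Max among others, was in the promoter of 5 of the 25 genes and of 8.09% of all 27025 genes in the table. AAAGGTCA, a site of the Nr4a receptors, was in none of the 25 and in 1.70% of all, and AGGAAG, an Ets-type site, in 3 (Polr2a, Polr2m and Polr3e) and in 38.4% of all. The stretches with CACGTG are shown, since they occur in genes that rose, fell and passed neither threshold; capitals mark the motif. They lie on the minus strand at chr3:96594340-96594405 (Polr3gl), chr3:96727641-96727689 (Polr3c) and chr7:19359666-19359731 (Cd3eap, which has another copy 20 bases after the start), and on the plus strand at chr7:120917771-120917800 (Polr3e) and chr16:20717837-20717866 (Polr2h).
Polr3gl: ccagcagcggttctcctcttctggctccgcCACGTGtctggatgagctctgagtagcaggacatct
Polr3c: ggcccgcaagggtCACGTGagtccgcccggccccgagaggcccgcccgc
Cd3eap: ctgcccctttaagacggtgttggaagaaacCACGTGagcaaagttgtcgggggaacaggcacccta
Polr3e: ccccgctcccccCACGTGtccggcggagtt
Polr2h: cttacttttctcCACGTGagggggtgcgcg
The motif starts 194 bases before the start of Polr3gl, 237 before that of Polr3c and 218 before that of Cd3eap, and 5 and 23 bases after those of Polr3e and Polr2h. Of these genes, Cd3eap, Polr3e and Polr2h rose, Polr3gl fell, and Polr3c gave -0.35 and -0.16. A match of letters is not a measured binding site.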

How the data were processed

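Cy3-labelled RNA (100 ng) of 4 samples was hybridised to SurePrint G3 Mouse 8x60K arrays. The authors deposited the spot intensity output of Agilent Feature Extraction 11.5.1.1 for each array (probe coordinates on mm9) and a log2 value table. Their methods name RMA, but for single-spot probes the table differed from the log2 processed intensity by a constant per array (SD 0.0029), the 75th percentile. Its column medians were -2.16, -2.17, -2.33 and -2.29.

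Here the processed intensity was used. Control spots and 115 to 160 outlier-flagged spots per array were left out, log2 values were averaged over the spots of a probe, and each array's 75th percentile over 56605 probes was subtracted. Between 64.9% and 67.6% of probes were well above background, and none was saturated. On each array the dimmest probe well above background set a floor, and probes that were not well above background took the floor where their own value was lower. A gene took its brightest probe by mean over the 4 arrays. Named genes were the large catalytic subunits, Polr3g and Polr3gl, those past 2-fold, the 3 highest and 3 lowest changes in each genotype and the 2 largest genotype differences at each stage; in other lists, at most 4 genes past 2-fold in both genotypes. The members and lists were chosen with earlier results of these data known. A planned list of other subunits is not reported here. The counting step was tested on simulated data. Alternatives used normexp and quantile normalization in limma 3.58.1 (R 4.3.3); other steps used Python 3.11.15, pandas 2.3.3 and numpy 2.4.6. With 1 array per group, the number of arrays limits the precision.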

Additional observations from a re-analysis of the deposited data

Results flagged for a closer look

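Polr2g, a stalk subunit of RNA polymerase II, was the only one of the 30 genes whose change over 3 h had opposite signs in the genotypes. The WT change was only slightly larger in size than 1 spot SD, at -0.19 against an SD of 0.12. The log2 difference was -0.19 in WT and 0.26 on the arrays labelled Nr4a-TKO, a difference of 0.45 between the changes, on 1 probe with a spot SD of 0.12 for each change. With normexp background correction (offset 0) and quantile normalization the values were -0.38 and 0.06, the latter inside the spread of spots. The difference between the genotypes was not tested.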

How the results depend on the processing

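The medians and counts of the 30 genes under each alternative moved little in 103 of 112 comparisons. A count within 1.5-fold of the main count was taken as little moved. The 9 that moved all concerned the change from naive T to iTreg. Some comparisons could not move. The settings that dropped or tightened the background filter left the 30 genes unchanged, and the deposited table has the same form as the values used. With normexp background correction (offset 0) and quantile normalization the median log2 difference from naive T to iTreg was 0.70 in WT and 0.79 on the arrays labelled Nr4a-TKO, and with normexp (offset 50), which compresses dim probes, it was 0.74 on the latter. With that offset 9 genes passed 2-fold higher in WT and 8 on the arrays labelled Nr4a-TKO, against 4.92% and 4.41% of all genes. At 3-fold 7 and 5 genes did, against 4.27% and 3.54% of all genes, and at 1.5-fold 21 rose and 2 fell on the arrays labelled Nr4a-TKO, against 17.8% and 20.2%. Between genotypes, 0 genes passed the threshold under every alternative, and the median stayed between -0.040 and -0.0041 in naive T and between -0.095 and -0.057 at 3 h. Of 420 values of single genes, 97 moved beyond the spot spread and 9 changed sign: 8 of Polr2c and Polr2i with another choice of probe, and Polr3f (-0.11 on the arrays labelled Nr4a-TKO) under quantile normalization. The all-gene median lay between -0.19 and -0.05 in WT over the alternatives. No paired analysis was possible because each group has 1 array. Leaving out a replicate was not possible for the same reason. Signal over background limits dim probes most, with a spot SD of 0.31 per difference below an intensity of 64.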
